A study of Mus musculus with 5 samples.

Results

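Venous endothelial nuclei come from the lining of veins and venules. A marker rule for them was met by 1806 of 63394 nuclei of 4 mouse white adipose depots (76040 nuclei in the 5 depots sequenced). The libraries with these members were SWAT (subcutaneous, 363 venous nuclei), EWAT (epididymal, 560), MWAT (mesenteric, 618) and NWAT (perirenal, 265). They were chosen by counts of unique molecular identifiers (UMIs, one per captured transcript). A blood endothelial nucleus had at least 200 genes, at most 10% mitochondrial UMIs and at least 4 UMIs over Flt1, Ptprb, Adgrl4, Cyyr1, Emcn, Cdh5, Pecam1 and Mecom. It also had 0 UMIs of the lymphatic genes Prox1 and Mmrn1 and at most 1 over Pdgfra, Mrc1, Upk1b and Bank1, which mark progenitors, macrophages, mesothelium and B cells. A venous nucleus had in addition 2 or more UMIs over Vwf, Selp, Ackr1 and Vcam1. Those had to outnumber its UMIs over the arterial genes Gja5, Hey1, Efnb2 and Sema3g and over the capillary genes Car4, Gpihbp1, Btnl9 and Cd300lg. Capillary and arterial nuclei were taken by the same rule with the lists exchanged, and the remaining blood endothelial nuclei are called unassigned.

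The study sequenced single nuclei of white adipose tissue to set cell types side by side across depots. All mice were wild-type males of 10 weeks on chow diet. Blood was flushed out with heparin in saline, and neighbouring lymph nodes were dissected away from SWAT and MWAT. Each depot was 1 library of pooled tissue, from 6 mice for SWAT, EWAT and NWAT and from 10 mice for MWAT, so no depot had a replicate. The strain field of the labels reads C57BL/6J for SWAT and EWAT, C57BL/7J for MWAT and C57BL/8J for NWAT, whereas the protocol text names C57BL/6J for all. The pool, the number of mice and the dissection cannot be told apart from the depot. Values between depots are therefore given with 95% intervals that cover counting error only, with no test.

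Blood leaves a capillary bed through post-capillary venules and then veins, whose lining is the main place where leukocytes leave the circulation. Endothelium of venules stores von Willebrand factor and P-selectin in the same granules, and it shows selectins, ICAM-1 and VCAM-1 to rolling and arresting leukocytes. The orphan nuclear receptor encoded by Nr2f2 (COUP-TFII) holds venous identity against Notch signalling, which directs arterial identity. In adipose tissue the capillary endothelium, by contrast, takes up and passes on fatty acids.

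The 4 libraries differed in depth. Venous nuclei had a median of 1607 UMIs in SWAT, 1992 in EWAT, 1374 in MWAT and 2006 in NWAT, and between 633446 and 1289371 UMIs in all per depot. Median mitochondrial shares were between 0.308% and 0.564%. Between 5 and 10 venous barcodes per library also occurred in another library, and 1 barcode was venous in both EWAT and MWAT. The summed level of 8 adipocyte genes in venous nuclei was between 1825 and 3268 CPM (UMI counts of the summed nuclei scaled to a total of 1000000), against 6006 to 14937 CPM in nuclei with no UMI of the 8 endothelial genes. All 8 of these adipocyte genes had UMIs in the venous nuclei of every depot.

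The 4 genes that chose the nuclei are described first, without a test. Vwf, which encodes the platelet-binding von Willebrand factor (chromosome 6, 125546774 to 125686679, GRCm38), was at 831 CPM in SWAT, 1439 in EWAT, 1651 in MWAT and 1353 in NWAT venous nuclei. In capillary nuclei it was between 18.0 and 63.8 CPM. Selp, which encodes P-selectin (chromosome 1, 164115264 to 164150026), was at 367, 182, 149 and 316 CPM in the same order. SWAT and NWAT thus stood above EWAT and MWAT for Selp, and the order of the depots for Vwf was the reverse. Ackr1, the chemokine-binding receptor of venules (chromosome 1, 173331886 to 173333750), was likewise higher in SWAT and NWAT, with 319 CPM in SWAT, 76.0 in EWAT, 89.3 in MWAT and 194 in NWAT. Vcam1, the ligand of leukocyte integrins (chromosome 3, 116109949 to 116129688), was at 467, 507, 758 and 425 CPM. A nucleus held a median of 3 to 5 UMIs over the 4 genes together, and nuclei with all 4 were not counted.

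At the lower edge, 110 nuclei in SWAT, 130 in EWAT, 186 in MWAT and 46 in NWAT entered with exactly 2 venous UMIs. Just outside were 69, 91, 194 and 13 nuclei with 1 venous UMI and no higher count of another class. A further 25, 34, 15 and 40 nuclei had a tie with another class. No arterial or capillary UMI at all was seen in 49.6% of venous nuclei in SWAT, 54.8% in EWAT, 72.0% in MWAT and 32.5% in NWAT. This share was highest in MWAT, whose venous nuclei had the lowest median depth, and lowest in NWAT, whose venous nuclei had the highest. EWAT was close to NWAT in median depth (1992 against 2006 UMIs) but not in this share. SWAT, with a median of 1607 UMIs, had a lower share than EWAT. The part of depth in these shares was not tested.

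Venous nuclei made up 17.3% of blood endothelial nuclei in SWAT (363 of 2099, exact Clopper-Pearson 95% interval 15.7 to 19.0), 20.5% in EWAT (560 of 2728, 19.0 to 22.1), 32.9% in MWAT (618 of 1880, 30.8 to 35.0) and 12.9% in NWAT (265 of 2057, 11.5 to 14.4). MWAT had the highest share and NWAT the lowest, and the 4 intervals met only between SWAT and EWAT, at their edge. The capillary share went the other way, with 56.2% in SWAT, 55.7% in EWAT, 26.8% in MWAT and 73.3% in NWAT. Per capillary nucleus there were 0.308 venous nuclei in SWAT, 0.368 in EWAT, 1.23 in MWAT and 0.176 in NWAT. Arterial nuclei were between 3.78% and 5.83% of blood endothelial nuclei in every depot. As a share of all kept nuclei, venous nuclei were 2.95%, 3.02%, 3.13% and 2.07%, and by this measure the intervals of SWAT, EWAT and MWAT overlapped. After each nucleus was thinned to 1000 UMIs, leaving out 15 to 126 shallower venous nuclei per depot, the shares were 15.9%, 16.8%, 33.0% and 11.4%. MWAT also had the largest unassigned share, 36.5%, against 22.5% in SWAT, 17.9% in EWAT and 9.24% in NWAT. These shares depend on the lower edge of the rule: with 3 UMIs of the class required, the venous share was 12.1%, 15.8%, 23.0% and 10.6%. They count every nucleus that met the rule. In MWAT, Emcn, an endothelial gene of the rule, had a UMI in 39.5% of venous and 55.4% of capillary nuclei. In the other depots it was in 76.2% to 84.5% of venous and 35.8% to 56.8% of capillary nuclei. Bmx, an arterial gene outside the rule, had a UMI in 36.1% of MWAT venous nuclei, against 9.64% to 21.6% elsewhere. How many of these nuclei line veins was not tested.

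**Figure D1:**
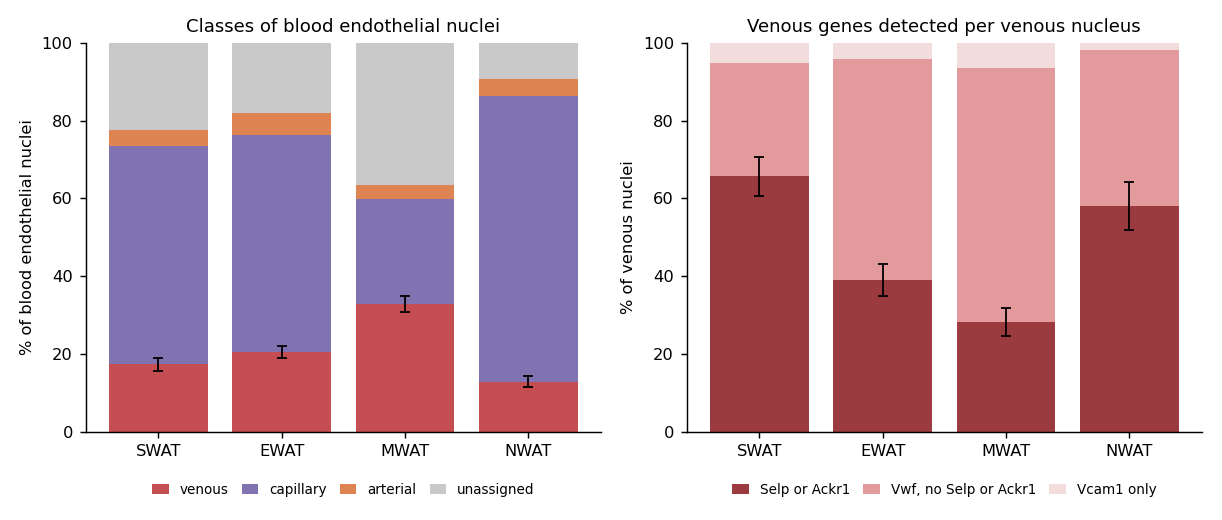
Left: percent of blood endothelial nuclei that were venous, capillary, arterial or unassigned in each of the 4 libraries (stacked bars, with the exact 95% interval on the venous share). Right: percent of the venous nuclei with a Selp or Ackr1 UMI, with Vwf but neither of those, and with Vcam1 as their only venous gene. MWAT had the highest venous share (32.9%) and SWAT the highest share with Selp or Ackr1 (65.8%).

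The venous nuclei were not alike in which of the 4 genes had a UMI, and the part of low counts in this was not tested. Selp or Ackr1, the genes most tied to venules, had a UMI in 65.8% of venous nuclei in SWAT (239 nuclei, 60.7 to 70.7), 38.9% in EWAT (218, 34.9 to 43.1), 28.2% in MWAT (174, 24.6 to 31.9) and 58.1% in NWAT (154, 51.9 to 64.1). Vwf with neither of them was the pattern of 28.9%, 57.0%, 65.2% and 40.0% of venous nuclei. Only 1.89% to 6.63% carried Vcam1 alone. Nuclei with both Selp and Ackr1 were 17.6% in SWAT and 16.2% in NWAT, but 3.93% in EWAT and 2.27% in MWAT. The median depth of the Selp or Ackr1 nuclei differed little from that of the Vwf nuclei within a depot, with 1630.0 against 1586 UMIs in SWAT, 1953 against 2022 in EWAT and 1504 against 1331 in MWAT, and NWAT was closer still. Selp UMIs were found in 46.3% of venous nuclei in SWAT, 44.2% in NWAT and 19.9% in MWAT, with EWAT between, in 0.595% to 3.05% of capillary nuclei, and in 0.284% to 0.435% of nuclei with no endothelial UMI, whose median depth was 1300.0 to 2796 UMIs.

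The Selp or Ackr1 nuclei and the Vwf nuclei were compared for 317 listed genes outside the rule, as a description, because the split itself uses UMIs of the rule. In 4 of 4 libraries, 45 of them were higher in the Selp or Ackr1 nuclei and 43 were higher in the Vwf nuclei, and the first 5 genes below were picked from these after their values were seen. Mgp, which encodes matrix Gla protein, an inhibitor of calcification and of BMP signalling, was at 238 CPM in the Selp or Ackr1 nuclei and 2365 CPM in the Vwf nuclei of SWAT. The 2 values were 1979 and 2939 CPM in EWAT, 3608 and 4719 in MWAT, and 219.8 and 1593 in NWAT, so Mgp was lower in Selp or Ackr1 nuclei in 4 of 4 libraries. Bmx, a non-receptor tyrosine kinase of arterial endothelium, showed the same order, with 32.8 against 166 CPM in SWAT, 246 against 359 in EWAT, 299 against 448 in MWAT and 22.0 against 201 in NWAT. Nos3, the endothelial nitric oxide synthase, was at 131 against 236, 256 against 366, 177 against 248 and 159 against 244 CPM. In the other direction, Il1r1, the signalling receptor for interleukin-1, was at 355 against 166 CPM in SWAT, 258 against 178 in EWAT, 215 against 161 in MWAT and 404 against 346 in NWAT. Lrg1, a secreted glycoprotein of venules, was at 2248 against 1547, 1706 against 1518, 784 against 556 and 2078 against 1420.1 CPM. The counting intervals of the 2 kinds of nuclei overlapped for Il1r1 in MWAT (167 to 272 and 131 to 195 CPM) and NWAT (341 to 475 and 278 to 426). They also overlapped for Nos3 in MWAT and NWAT and for Lrg1 in EWAT, and not for Mgp or Bmx in any library. Among 18 arterial genes outside the rule, Nebl, Dkk2 and Hey2 were, like Bmx, higher in the Vwf nuclei in 4 of 4 libraries. Their mean log2 differences were -3.10, -1.98 and -1.75, from 85, 71 and 48 UMIs in all. Cxcl12, Jag2 and Nrp1 of the same list were higher in the Selp or Ackr1 nuclei in 3 of 4 libraries.

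**Figure D2:**
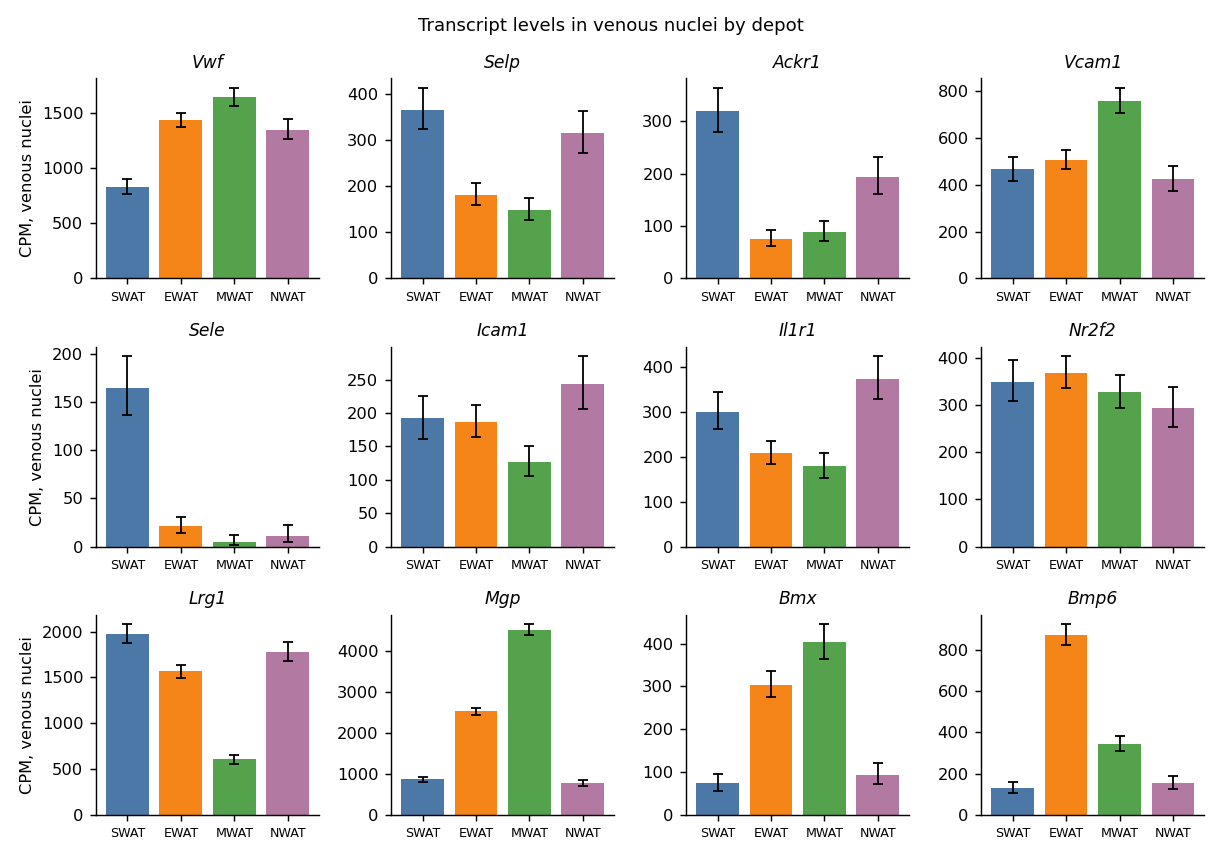
CPM of 12 genes in the summed venous nuclei of each depot (bars, with exact 95% Poisson intervals of counting error). Vwf and Mgp were highest in MWAT, Selp, Ackr1 and Sele in SWAT, and Bmp6 in EWAT, where it reached 872 CPM.

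Venous nuclei were then compared with the capillary and the arterial nuclei of the same 4 libraries. Counts were summed per class and library and tested with edgeR's quasi-likelihood test, with the library as a block and Benjamini-Hochberg adjustment at 0.05 over all genes tested. The 26 genes of the rule were left out. Because the classes were made from these nuclei, genes that vary together with the rule genes had to differ, and the depots are the replicates of these tests. Against capillary nuclei, 1176 of 10258 genes were higher (11.5%) and 1438 were lower (14.0%) in venous nuclei. Against arterial nuclei, with only 409 nuclei in the 4 libraries, 409 of 7650 genes were higher (5.35%) and 509 were lower (6.65%). Without the library as a block, that is without pairing the classes of a library, the 4 counts were 600, 503, 197 and 244.

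Genes known for venous identity that the rule did not use were higher in venous nuclei. Of 15 such genes, 14 were tested against capillary nuclei, and 13 were higher and 1, the apelin receptor gene Aplnr, was lower, with a median log2 difference of 2.48 against -0.02 over all genes tested. Against arterial nuclei 11 of 12 were higher, with a median of 2.72 against 0.01. Nr2f2, the venous identity factor (chromosome 7, 70351944 to 70366735), was at 350.1 CPM in SWAT, 369 in EWAT, 327 in MWAT and 294 in NWAT venous nuclei. Its capillary levels were 89.3, 121, 89.8 and 85.0 CPM, and its arterial levels were 11.5, 34.1, 51.2 and 4.65 CPM. The venous libraries were thus close to each other and did not overlap with either of the other classes. The log2 difference was 1.70 ± 0.12 (SE, n = 4 libraries, adjusted p = 2.11e-07) from capillary and 3.77 ± 0.29 (adjusted p = 1.50e-08) from arterial nuclei.

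Nrp2, a co-receptor for semaphorins and VEGF-C that marks veins and lymphatics, was at 508, 593, 358 and 807 CPM in venous nuclei, between 170.4 and 213 in capillary nuclei and between 0 and 68.3 in arterial nuclei. It was higher than in capillary nuclei by 1.37 ± 0.16 on the log2 scale (adjusted p = 2.22e-05) and than in arterial nuclei by 4.31 ± 0.38 (adjusted p = 6.71e-08). Tll1, a tolloid-like metalloprotease that activates BMP ligands, was at 475, 388, 573 and 415 CPM, against 40.4 to 49.9 CPM in capillary nuclei (log2 difference 3.20 ± 0.15, adjusted p = 7.77e-09). Plvap, which forms the diaphragms of fenestrae and caveolae, was at 731, 613, 610.1 and 595 CPM, against 56.7 to 186 CPM in capillary nuclei (2.59 ± 0.21, adjusted p = 8.21e-07). All 3 genes had venous values above every capillary value. Ephb4, the ephrin receptor of veins, was higher than in capillary nuclei by only 0.73 ± 0.15 (adjusted p = 0.00284), a difference that did not pass once nuclei with 2 or more adipocyte UMIs were left out.

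Venous nuclei also shared transcripts with arterial nuclei that were lower in capillary nuclei. The 10 genes with the highest log2 difference from capillary nuclei included Cytl1, Lepr, Adgrg6, Slco2a1, Itgb4 and Mgp. Cytl1, a secreted cytokine-like protein (chromosome 5, 37735519 to 37739820), was at 371 CPM in SWAT, 385 in EWAT, 1850.1 in MWAT and 290.5 in NWAT, against 7.37 to 36.5 CPM in capillary nuclei (log2 difference 5.08 ± 0.19, adjusted p = 2.90e-09). Its arterial levels were 933, 934, 1195 and 395 CPM, and the venous difference from them did not pass (-0.66 ± 0.24, adjusted p = 0.0869). Mgp was likewise far above capillary nuclei (4.21 ± 0.16, adjusted p = 2.90e-09), with 861, 2519, 4506 and 772 CPM against 36.0 to 191, while arterial nuclei held 1859 to 4174 CPM. Against arterial nuclei Mgp was lower (-0.91 ± 0.24, adjusted p = 0.0128), a call lost in 5 of 16 alternatives, among them without NWAT (adjusted p = 0.0537). Itgb4, an integrin subunit that binds laminin, was at 167 to 192 CPM in venous and 121 to 144 CPM in arterial nuclei, against 6.14 to 11.2 CPM in capillary nuclei. All capillary values of these 3 genes lay below all venous and arterial values.

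Lepr, the leptin receptor (chromosome 4, 101717404 to 101815352), was in contrast higher in venous nuclei than in both other classes. Its venous levels were 108 CPM in SWAT, 90.0 in EWAT, 206 in MWAT and 80.5 in NWAT, against 1.63 to 16.9 CPM in capillary nuclei and 9.30 to 68.3 CPM in arterial nuclei. The log2 difference was 4.75 ± 0.26 (adjusted p = 3.03e-08) from capillary and 2.23 ± 0.28 (adjusted p = 9.60e-06) from arterial nuclei. Within each depot the venous level was the highest of the 3. Adgrg6, an adhesion G protein-coupled receptor that binds collagen IV and laminin (chromosome 10, 14402583 to 14545659), was at 149, 182, 746 and 232 CPM and was higher by 4.57 ± 0.18 (adjusted p = 2.90e-09) and 2.61 ± 0.28 (adjusted p = 9.21e-07) than in capillary and arterial nuclei. Slco2a1, the prostaglandin transporter (chromosome 9, 102988712 to 103096002), was at 203, 533, 466 and 246 CPM and was higher by 4.32 ± 0.17 (adjusted p = 2.90e-09) and 1.59 ± 0.23 (adjusted p = 3.80e-05). Bst1 (4.64 ± 0.35) and Masp1 (4.42 ± 0.39) were at 38.4 and 31.9 CPM on average over the venous libraries and had no UMI in any arterial library. The 10 also held Gm6213 and 2310002F09Rik.

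**Figure D3:**
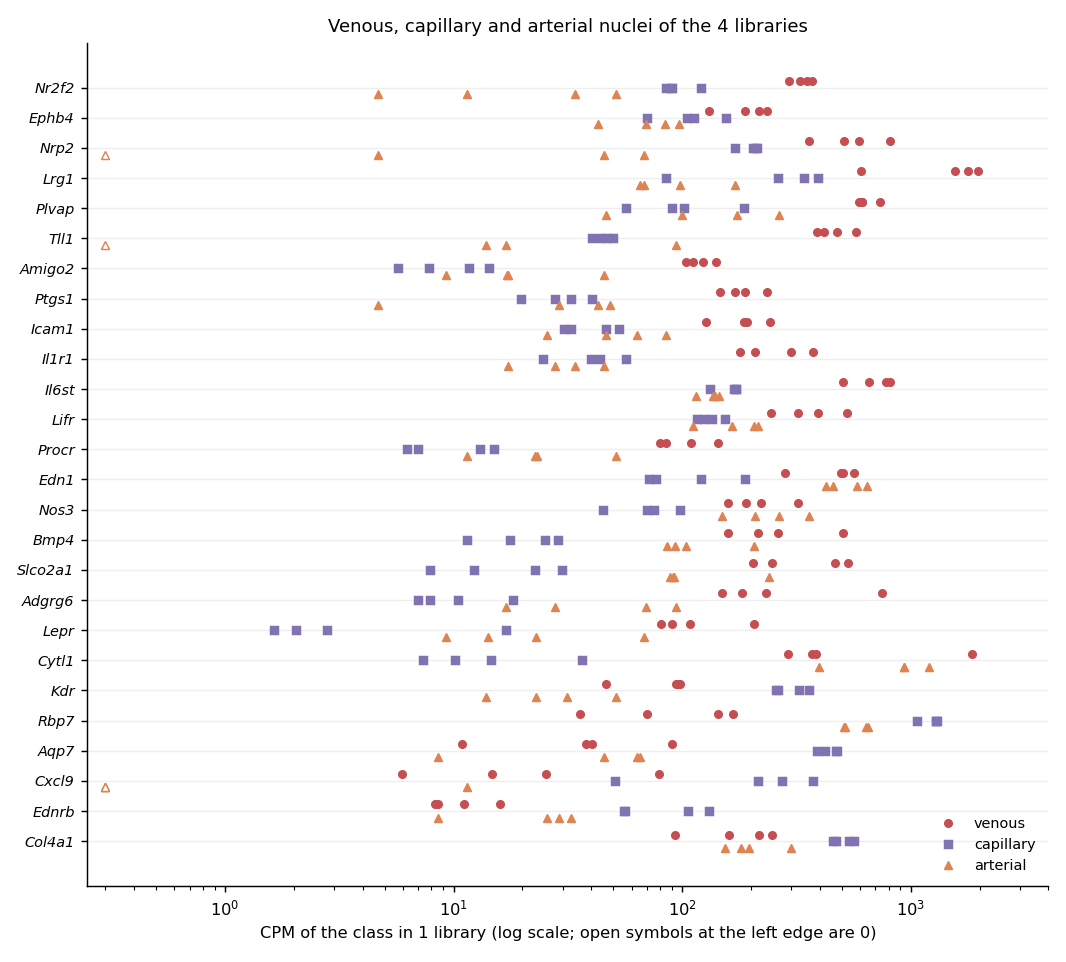
CPM (log axis) of 26 genes in the summed venous, capillary and arterial nuclei, with 1 point per library and class. Of the 3 classes, Nr2f2, Lrg1 and Il1r1 were highest in venous nuclei, Cytl1 and Edn1 were higher in venous and arterial than in capillary nuclei, and Rbp7 was high in capillary nuclei.

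Genes of the arterial class outside the rule divided. Of 18, 17 were tested against arterial nuclei and 15 were lower in venous nuclei, with a median log2 difference of -1.88. Dll4, the Notch ligand of arterial and tip cells, was at 2.78, 13.2, 6.94 and 7.89 CPM in venous nuclei, against 56.8 to 125 CPM in arterial nuclei (-3.47 ± 0.38, adjusted p = 1.29e-06). It was also lower than in capillary nuclei (-2.02 ± 0.25, adjusted p = 4.62e-05). Sox17, a transcription factor of arterial specification, was at 67.9 to 158 CPM in venous and 246 to 818 CPM in arterial nuclei (-2.00 ± 0.17, adjusted p = 3.53e-08). Against capillary nuclei, 6 of 16 arterial genes tested were higher in venous nuclei and 6 were lower. Vegfc, a growth factor for lymphatic vessels, and Bmx were among the higher ones, by 1.90 ± 0.19 (adjusted p = 5.44e-06) and 3.25 ± 0.25 (adjusted p = 4.68e-07). Both were still lower than in arterial nuclei, by -2.00 ± 0.15 (adjusted p = 1.28e-08) and -1.51 ± 0.28 (adjusted p = 5.45e-04), so venous nuclei stood between the other classes for them. Nebl, an actin-binding protein, was at 18.1 to 42.6 CPM in venous and 205 to 725 CPM in arterial nuclei (-3.89 ± 0.21, adjusted p = 4.77e-10).

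Transcripts of capillary fatty acid handling were lower in venous nuclei. Of 16 capillary genes outside the rule, 15 were tested and 12 were lower than in capillary nuclei, with a median log2 difference of -1.56. Rbp7, a retinol-binding protein of adipose endothelium, was at 144 CPM in SWAT, 69.8 in EWAT, 35.7 in MWAT and 166 in NWAT venous nuclei, against 1069 to 1299 CPM in capillary nuclei (-3.84 ± 0.26, adjusted p = 1.34e-07). Cd36, the fatty acid translocase, was at 2013, 1521, 812 and 2445 CPM against 3455 to 5060.1 (-1.49 ± 0.23, adjusted p = 2.80e-04). Fabp4, a fatty acid-binding protein that adipocytes also express, was at 12969 to 30576 CPM against 45211 to 65108 (-1.56 ± 0.23, adjusted p = 2.09e-04). All venous values of the 3 genes lay under all capillary values. The 8 adipocyte marker genes were all lower in venous than in capillary nuclei as well, with a median of -0.77, and the part of their transcripts in these differences was not tested. Tmem182 (-4.36 ± 0.22) and Adora2a, an adenosine receptor (-5.53 ± 0.40), were among the 10 lowest, with venous levels of 1.98 to 15.8 and 0 to 2.78 CPM.

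Genes for leukocyte capture and arrest did not move as 1 group. Of 24, of which 17 were tested against capillary nuclei, 7 were higher and 4 were lower, with a median of 0.32. Icam1, the integrin ligand for firm adhesion, was at 192 CPM in SWAT, 187 in EWAT, 127 in MWAT and 243 in NWAT, against 30.3 to 53.0 CPM in capillary and 25.6 to 85.2 CPM in arterial nuclei. It was higher by 2.12 ± 0.15 (adjusted p = 2.07e-07) and 1.62 ± 0.23 (adjusted p = 2.72e-05), with no overlap between venous values and the others. Csf1, the macrophage growth factor, was at 51.4 to 75.2 CPM against 15.6 to 28.6 in capillary nuclei (1.39 ± 0.16, adjusted p = 2.69e-05). Cd34, a sialomucin that can carry L-selectin ligands, was at 193 to 291 CPM against 71.3 to 105 (1.24 ± 0.13, adjusted p = 8.56e-06). Cxcl9, an interferon-induced T cell chemokine, went the other way, with 79.2, 14.7, 5.95 and 25.3 CPM against 373, 215, 50.8 and 273 (-3.14 ± 0.22, adjusted p = 2.33e-07). Capillary nuclei thus held more Cxcl9 and venous nuclei more Icam1 in each of the 4 libraries. Sele, which encodes E-selectin, had too few UMIs outside SWAT to be tested between classes, with 119 UMIs in SWAT venous nuclei and 5 to 27 in the others.

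The stretches of 250 bases before the starts of 3 adhesion genes are shown because Sele and Selp both lie on chromosome 1 and were highest in SWAT, whereas Icam1 on chromosome 9 was not. They come from the RefSeq table of GRCm38.p6, 5′ to 3′ on the strand of the gene. Capitals mark 2 motifs found on either strand: GGG and CC with 5 bases of any kind between them, a loose form of the NF-kappaB site, and AGGAAG, a form of the ETS site. Neither is rare, since 45.8% and 29.5% of 32841 promoter windows of the table hold them, and both were chosen after the windows had been seen.
Sele (chr1:164047984-164048233, plus strand): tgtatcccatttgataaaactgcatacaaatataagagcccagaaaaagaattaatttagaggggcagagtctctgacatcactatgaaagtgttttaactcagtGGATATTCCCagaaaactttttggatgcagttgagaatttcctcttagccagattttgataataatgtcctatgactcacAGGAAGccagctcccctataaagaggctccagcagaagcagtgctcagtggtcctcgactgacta
Selp (chr1:164115014-164115263, plus strand): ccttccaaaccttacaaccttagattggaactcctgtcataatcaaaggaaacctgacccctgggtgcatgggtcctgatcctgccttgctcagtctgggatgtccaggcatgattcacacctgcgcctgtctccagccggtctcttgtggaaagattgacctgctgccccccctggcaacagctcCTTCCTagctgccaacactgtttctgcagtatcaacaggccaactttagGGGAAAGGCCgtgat
Icam1 (chr9:21015690-21015939, plus strand): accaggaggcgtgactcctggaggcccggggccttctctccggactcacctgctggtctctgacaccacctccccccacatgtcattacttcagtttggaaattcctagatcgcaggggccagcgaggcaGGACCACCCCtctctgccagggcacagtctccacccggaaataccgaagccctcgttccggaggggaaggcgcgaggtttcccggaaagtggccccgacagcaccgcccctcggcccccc
The NF-kappaB form lay 145 bases before the start of Sele, 15 before that of Selp and 120 before that of Icam1. The ETS form lay 65 bases before the start of Sele and 64 before that of Selp. A match describes the letters of the window and is not a measured site.

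Receptors for inflammatory cytokines were higher in venous than in capillary nuclei for 8 of 18 genes tested and lower for 2, with a median of 0.42. Il1r1 (chromosome 1, 40225080 to 40317257) was at 300 CPM in SWAT, 209 in EWAT, 179 in MWAT and 373 in NWAT venous nuclei, against 24.7 to 56.8 CPM in capillary and 17.3 to 45.4 CPM in arterial nuclei. It was higher by 2.55 ± 0.18 (adjusted p = 2.33e-07) and 2.92 ± 0.27 (adjusted p = 1.02e-07), with no overlap. Il6st, the signal-transducing gp130 subunit shared by interleukin-6 family receptors, was at 779, 655, 507 and 809.9 CPM, against 132 to 172 CPM in capillary and 115 to 145 CPM in arterial nuclei. Its log2 differences were 1.99 ± 0.15 (adjusted p = 5.02e-07) and 2.32 ± 0.18 (adjusted p = 1.60e-08). Lifr, which pairs with gp130, was higher than in capillary nuclei by 1.36 ± 0.15 (adjusted p = 1.79e-05), and Tnfrsf1b, the second receptor for tumour necrosis factor, by 1.84 ± 0.23 (adjusted p = 3.77e-05). Lrg1, a known target of interleukin-6 family signalling, was at 1974, 1567, 604 and 1782 CPM in venous nuclei, against 84.6 to 392 CPM in capillary nuclei (2.41 ± 0.15, adjusted p = 7.05e-08). Its level in nuclei with no endothelial UMI was between 56.0 and 391 CPM. Ifngr1, the ligand-binding subunit of the interferon gamma receptor, was lower than in capillary nuclei by -0.52 ± 0.12 (adjusted p = 0.00659), a difference lost when NWAT was left out.

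Genes for clotting and vessel tone were higher in venous than in capillary nuclei for 11 of 18 tested and lower for 1, with a median of 1.10. Against arterial nuclei 4 of 13 were higher and 2 were lower, with a median of -0.16. Procr, the endothelial receptor for the anticoagulant protein C, was at 84.7 CPM in SWAT, 79.9 in EWAT, 143 in MWAT and 109 in NWAT, against 6.28 to 15.0 CPM in capillary and 11.5 to 51.2 CPM in arterial nuclei. It was higher than both, by 3.22 ± 0.18 (adjusted p = 3.58e-08) and 1.94 ± 0.28 (adjusted p = 3.80e-05). Ptgs1, the constitutive cyclooxygenase, was at 171, 188, 147 and 235 CPM and was higher by 2.61 ± 0.17 (adjusted p = 1.03e-07) and 2.51 ± 0.31 (adjusted p = 5.07e-06). Ace, the angiotensin-converting enzyme, was higher than in capillary nuclei (2.02 ± 0.15, adjusted p = 3.11e-07) and lower than in arterial nuclei (-1.10 ± 0.18, adjusted p = 1.28e-04). Edn1, the vasoconstrictor endothelin-1, was at 503, 562, 493 and 283 CPM, higher than in capillary nuclei by 1.98 ± 0.18 (adjusted p = 1.93e-06), and its difference from arterial nuclei did not pass (-0.26 ± 0.16, adjusted p = 0.416). Entpd1, the CD39 ectonucleotidase that removes the platelet agonist ADP, differed by 2.68 ± 0.19 (adjusted p = 2.11e-07) and 0.29 ± 0.15 (adjusted p = 0.302). Nos3 differed by 1.54 ± 0.12 (adjusted p = 7.26e-07) and -0.16 ± 0.16 (adjusted p = 0.677). Ednrb, an endothelin receptor, was the lower gene, at 8.33 to 15.9 CPM in venous against 55.7 to 131 CPM in capillary nuclei (-3.09 ± 0.26, adjusted p = 1.41e-06).

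Among receptors and ligands of the VEGF, angiopoietin and BMP families, 6 of 19 tested were higher than in capillary nuclei and 4 were lower, with a median of 0.27. Bmp4, a ligand of the family, was at 214 CPM in SWAT, 503 in EWAT, 263 in MWAT and 158 in NWAT, against 11.5 to 28.6 CPM in capillary nuclei (3.69 ± 0.20, adjusted p = 3.03e-08). Bmpr2, its type II receptor, was higher by 1.31 ± 0.13 (adjusted p = 4.77e-06). Kdr, the main VEGF receptor, was lower, at 46.6 to 97.9 CPM against 258 to 359 CPM (-1.96 ± 0.16, adjusted p = 6.93e-07). Bmp4 was above and Kdr below the capillary level in all 4 libraries. Bmp6, another ligand of the family, did not pass (-0.53 ± 0.29, adjusted p = 0.223). Of 28 transcription factors tested, 10 were higher and 8 were lower than in capillary nuclei, with a median of 0.24. Gata6 was higher by 2.56 ± 0.15 (adjusted p = 5.94e-08), Foxc1 by 2.73 ± 0.28 (adjusted p = 6.27e-06) and Erg, an ETS factor of all endothelium, by 0.88 ± 0.15 (adjusted p = 5.21e-04). Of these 3, Erg also differed from arterial nuclei (1.13 ± 0.17, adjusted p = 6.15e-05).

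Of 24 matrix genes tested, 7 were higher and 10 were lower than in capillary nuclei, with a median of -0.29. Among the higher ones, Eln, which encodes elastin, was at 1418, 3327, 759.9 and 2538 CPM against 149 to 359 (2.89 ± 0.19, adjusted p = 1.25e-07), and Bgn, which encodes biglycan, was at 254, 568, 440.5 and 423 CPM against 29.9 to 85.8 (2.72 ± 0.24, adjusted p = 2.20e-06). Among the lower ones were Col4a1 (-1.66 ± 0.17, adjusted p = 9.46e-06) and Col4a2 (-1.67 ± 0.17, adjusted p = 6.91e-06), the chains of the main type IV collagen of basement membrane, whereas Col18a1, another basement membrane collagen, was higher (0.96 ± 0.16, adjusted p = 3.89e-04). Antigen presentation and interferon genes were lower than in capillary nuclei for 12 of 28 tested and higher for 1, with a median of -0.37. Immediate early genes, which respond to stimulation and to dissociation, were higher for 5 of 15 and lower for 1, and against arterial nuclei 0 of 14 were higher and 3 were lower. Hox and other positional genes were higher for 6 of 15 and lower for 3, and none of 11 passed against arterial nuclei by edgeR. These counts stand beside the 11.5% higher and 14.0% lower of all genes against capillary nuclei, and the 5.35% and 6.65% against arterial nuclei.

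The highest differences from arterial nuclei included genes with few or no arterial UMIs. Cysltr1, the receptor for cysteinyl leukotrienes, was at 136, 56.6, 95.2 and 170.5 CPM in venous nuclei, between 9.11 and 18.8 in capillary and between 0 and 4.65 in arterial nuclei. Its log2 difference was 5.35 ± 0.48 from arterial (adjusted p = 8.16e-08) and 2.86 ± 0.18 from capillary nuclei (adjusted p = 6.62e-08). Lhx6, a LIM homeobox factor, was at 91.3 to 237 CPM in venous nuclei and had UMIs in only 1 arterial library, at 2.84 CPM (6.64 ± 0.51, adjusted p = 1.50e-08). Gpr182, an atypical receptor for chemokines, was at 26.4 to 39.7 CPM in venous nuclei and had no arterial UMI, so its fitted difference of 7.31 ± 1.07 depends on the fit and gives no fold. Aqp1, the water channel, was at 355 to 1377 CPM in venous and 5.76 to 68.3 CPM in arterial nuclei (4.28 ± 0.33, adjusted p = 1.50e-08).

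Within the venous class, the depots were compared by the summed CPM of 6563 genes with at least 100 UMIs over the 4 libraries. A gene was called set apart in a depot where its CPM was at least 2 times the next highest, or at most 0.5 of the next lowest. On the high side this held for 12 genes in SWAT (0.183%), 34 in EWAT (0.518%), 60 in MWAT (0.914%) and 21 in NWAT (0.320%). On the low side there were 60 genes in SWAT (0.914%), 17 in EWAT (0.259%), 103 in MWAT (1.57%) and 154 in NWAT (2.35%). Some high genes met the minimum of 100 UMIs only with the depot they were high in, so their entry depended on that depot. Of the genes named below by ratio, these were Sele, Hist1h4d and Cadm3 for SWAT and Lsamp, Slco1a4, Ptn and Dach2 for EWAT. They were Nkx2-3, Car8, Gucy1a1, Plac8 and Fxyd6 for MWAT and Lnx1 for NWAT. Of the listed genes given below, the same held for F8 in EWAT and for Fabp2 and Reg3b in MWAT. The same rule was applied to capillary nuclei and to nuclei with no endothelial UMI of each depot. Of the 34 EWAT high genes, 31 were set apart in neither, and so were 20 of the 21 NWAT high genes. Of the 60 MWAT high genes, 41 (68.3%) were also set apart in nuclei with no endothelial UMI, and of the 154 NWAT low genes, 111 (72.1%) were. The shares of all genes set apart in those 2 groups are not given here. Calls were rare among all genes in venous nuclei, so a gene set apart in neither group is the usual case. The overlaps are therefore counts only.

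SWAT venous nuclei stood out for E-selectin. Sele (chromosome 1, 164048234 to 164057677) was at 165 CPM in SWAT (119 UMIs), 20.9 in EWAT (27 UMIs), 4.96 in MWAT (5 UMIs) and 11.1 in NWAT (7 UMIs). SWAT was 7.89 times EWAT (95% interval 5.16 to 12.5), and 3.88 times in the nuclei that met the rule after thinning to 1000 UMIs. The full counts of those nuclei, not the thinned ones, were summed. Sele UMIs were found in 11.0% of SWAT venous nuclei (7.99 to 14.7), against 2.86%, 0.647% and 2.26% in the other depots and 0.594% of SWAT capillary nuclei. Within SWAT, Sele was at 222 CPM in the nuclei with Selp or Ackr1 and 55.2 CPM in those with Vwf and neither of these. The immediate early genes Jun and Junb, subunits of AP-1, were also highest in SWAT, at 272 CPM against 47.4 to 129 for Jun and 406 CPM against 83.7 to 164 for Junb. Both were also higher in SWAT than elsewhere in nuclei with no endothelial UMI, at 189 against 19.2 to 59.1 CPM and 236 against 38.5 to 82.3 CPM, and the part of such a library-wide difference in the Sele level was not tested. Grrp1 (390.3, 157, 131 and 17.4 CPM) and the histone gene Hist1h4d (77.8, 32.6, 35.7 and 15.8 CPM) were called too, the latter from a family of near-identical copies.

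Some SWAT genes carry a limit of position or source. Cadm3, a cell adhesion molecule (chromosome 1, 173333258 to 173367695, minus strand), was at 70.8, 23.3, 28.8 and 33.2 CPM, 2.14 times NWAT in SWAT. It overlaps Ackr1 on the same strand, so reads of the overlap cannot be assigned to 1 of them with certainty, and Ackr1 was itself highest in SWAT. Hba-a1, an alpha globin gene with a near-identical copy, was at 345, 52.7, 22.8 and 80.5 CPM in venous nuclei, at 983 CPM in SWAT capillary nuclei and at 143 CPM in SWAT nuclei with no endothelial UMI. Its venous ratio of SWAT to NWAT was 4.28, but 9.93 in nuclei chosen after thinning and 2.65 without nuclei with adipocyte UMIs. On the low side, Cldn5, the tight junction claudin of endothelium, was at 47.2 CPM in SWAT against 144, 279.7 and 139 CPM, which is 0.340 of NWAT (0.222 to 0.510) and 0.199 of it when Vcam1 was dropped from the venous list. Prdm16, a transcription regulator of arterial and brown fat cells, was at 23.6 CPM in SWAT against 79.4 to 100 CPM elsewhere, 0.298 of MWAT (0.165 to 0.507). Mthfd1l, a mitochondrial folate enzyme, was at 11.1 CPM against 30.2 to 52.1.

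The genes named by rule as high in a depot had to be at 2 or more times the CPM of that library's nuclei with no endothelial UMI, so their lower level there is part of how they were chosen. In EWAT venous nuclei they were Lsamp, Slco1a4, Ptn, Chrm3 and Dach2. Lsamp, a neuronal-type adhesion molecule (chromosome 16, 39984361 to 42181679), was at 5.56 CPM in SWAT, 152 in EWAT, 17.9 in MWAT and 4.74 in NWAT, and EWAT was 8.51 times MWAT (5.25 to 14.7). The ratio was 15.2 with likely doublets removed and 26.5 in nuclei chosen after thinning. In EWAT it was at 1.39 CPM in capillary nuclei and 4.02 CPM in nuclei with no endothelial UMI. Slco1a4, an organic anion transporter known from the blood-brain barrier (chromosome 6, 141805440 to 141856199), was at 129.5 CPM in EWAT (167 UMIs) and 22.1 CPM in NWAT (14 UMIs), with no UMI in SWAT or MWAT. EWAT was 5.86 times NWAT (3.40 to 11.0), or 3.16 times once nuclei with adipocyte UMIs were left out. EWAT capillary nuclei had no Slco1a4 UMI, but EWAT arterial nuclei held 36.9 CPM, and the arterial nuclei of the other depots had none. Chrm3, the muscarinic M3 receptor, was at 77.8, 347, 46.6 and 63.1 CPM, and EWAT was 4.47 times SWAT (3.38 to 6.01), or 7.02 times with 3 class UMIs required. Arterial nuclei held 375 CPM of Chrm3 in SWAT, 369 in EWAT, 154 in MWAT and 199.9 in NWAT, and over the 4 libraries the venous level was below the arterial one (-1.24 ± 0.27, adjusted p = 0.00297). Ptn, the heparin-binding cytokine pleiotrophin, was at 93.1 CPM in EWAT against 18.8 to 19.4 (4.79 times, 2.74 to 9.02), and Dach2 was at 106 CPM against 6.94 to 26.8.

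Some of the listed genes were set apart in EWAT as well. Bmp6, a regulator of hepcidin and of endothelial growth, was at 132, 872, 343 and 155 CPM (EWAT 2.54 times MWAT, 2.25 to 2.87). F8, which encodes coagulation factor VIII, was at 8.33, 83.0, 38.7 and 23.7 CPM (2.14 times, 1.47 to 3.18), and Fn1, which encodes fibronectin, at 48.6, 271, 129 and 120 CPM (2.10 times, 1.71 to 2.59). For F8 the call of a difference from capillary nuclei was lost without EWAT. The low genes of EWAT named by ratio, Uba7, Gnpda2 and Pbld1, lay at 0.335, 0.387 and 0.415 of the next lowest depot.

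MWAT venous nuclei stood out for Nkx2-3, a homeobox factor of gut mesoderm and of gut and spleen vessels (chromosome 19, 43612325 to 43615892). It had 100 UMIs in MWAT venous nuclei, 99.2 CPM, and 0 UMIs in the venous nuclei of SWAT, EWAT and NWAT. A count of 0 allows up to 4.17 CPM in SWAT, 2.33 in EWAT and 4.74 in NWAT, so MWAT was at least 20.9-fold higher, or 16.7-fold at the lower end of its own counting interval. All of its venous UMIs came from MWAT, so with the minimum of 100 UMIs it could enter this comparison only as an MWAT gene. In MWAT it was at 15.6 CPM in capillary, 8.54 CPM in arterial and 29.7 CPM in non-endothelial nuclei, each below the venous level, and it had no UMI in any of these groups in the other depots. Gucy1a1, a subunit of the soluble guanylate cyclase that senses nitric oxide, was at 23.6, 18.6, 210.3 and 26.8 CPM (MWAT 7.84 times NWAT, 4.78 to 13.7). Car8, an inactive carbonic anhydrase-related protein, was at 4.17, 10.9, 104 and 12.6 CPM (8.25 times, 4.04 to 19.6). Plac8 was at 136 CPM in MWAT against 2.33 to 20.5, and Fxyd6, a regulator of the sodium pump, at 202 CPM against 18.6 to 38.9. Arterial nuclei, only 71 in MWAT, were also highest there for Gucy1a1 (137 CPM against 4.65 to 51.9), Fxyd6 (51.2 against 5.76 to 13.9) and Plac8 (42.7 against 0). For Car8 the MWAT arterial level was 25.6 CPM, below the 37.2 CPM of NWAT. Cytl1 and Adgrg6, both higher in venous than in capillary nuclei, were highest in MWAT as well, 4.81 times EWAT (4.35 to 5.32) and 3.21 times NWAT (2.69 to 3.86).

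Transcripts of gut lining and smooth muscle were found in the same MWAT nuclei. Fabp2, the intestinal fatty acid-binding protein, was at 120 CPM and Reg3b, an antimicrobial lectin of gut epithelium, at 113 CPM in MWAT venous nuclei, and neither had a UMI in the venous nuclei of the other depots. MWAT nuclei with no endothelial UMI held 166 and 428 CPM, and MWAT capillary nuclei 62.5 and 93.7 CPM. Summed over 8 gut lining genes, the level was 488 CPM in venous, 362 in capillary and 1071 in non-endothelial nuclei of MWAT, against 34.1 to 53.7 CPM in venous nuclei of the other depots. Summed over 8 smooth muscle genes it was 1622, 1673 and 4579 CPM in MWAT. Elsewhere it was at 1045 CPM in SWAT, 703 in EWAT and 579 in NWAT venous nuclei. In these depots the venous level was above that of capillary nuclei (145, 142 and 97.5 CPM) and of nuclei with no endothelial UMI (298, 262 and 93.3 CPM). In MWAT nuclei with no endothelial UMI, Car8 was at 12.5 CPM, Gucy1a1 at 72.0, Plac8 at 51.2 and Fxyd6 at 67.5 CPM. The part of transcripts from other cells in the MWAT values was not tested.

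On the low side of MWAT, Pparg, the nuclear receptor of fat storage, was at 415, 312, 74.4 and 475 CPM (MWAT 0.239 of EWAT, 0.184 to 0.306), with capillary levels of 1158, 1308, 630.2 and 1361 CPM. Timp4, a metalloprotease inhibitor, was at 115, 89.2, 27.8 and 163 CPM, and Aqp1 at 847, 864, 355 and 1377 CPM. Of 16 capillary genes outside the rule, 5 of the 15 with enough UMIs were set apart as low in MWAT (Aqp7, Aqp1, Kdr, Timp4 and Pparg), and the fatty acid genes Cd36, Fabp4, Fabp5 and Lpl were not. Lrg1 was at 0.386 of EWAT (0.352 to 0.422), and Cxcl12, a chemokine that retains leukocytes, at 204, 166, 53.6 and 175 CPM. Depp1, a target of FOXO factors, had 2 UMIs in MWAT, 1.98 CPM against 31.8 to 76.4, a ratio to EWAT of 0.0624 (0.00731 to 0.240). Fam167b and Spaar had 5 and 6 UMIs in MWAT and were at 0.121 and 0.132 of EWAT. The summed level of the 8 adipocyte genes was also lowest in MWAT, in venous (1825 CPM) and in other nuclei (6006 CPM), and its part in these values was not tested.

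NWAT venous nuclei had fewer genes set apart as high. Mdga2, a cell-surface protein that binds neuroligins, was at 33.3 CPM in SWAT, 54.3 in EWAT, 25.8 in MWAT and 188 in NWAT (3.46 times EWAT, 2.55 to 4.72), and at 19.3 CPM in NWAT capillary nuclei. Ncald, a neuronal calcium sensor, was at 77.8, 83.0, 42.7 and 183 CPM (2.21 times, 1.68 to 2.90). Ablim3, an actin-binding protein, was at 145 CPM against 17.9 to 51.4 (2.83 times SWAT, 1.91 to 4.26), but capillary nuclei held 435 to 726 CPM and the ratio was 1.78 once nuclei with adipocyte UMIs were left out. Lnx1, a ubiquitin ligase, showed the same position, at 80.5 CPM against 15.9 to 37.5 in venous and 295 to 518 CPM in capillary nuclei. H2-Q6, a class I gene with near-identical neighbours, was at 133 CPM against 53.5 to 57.5.

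Of the 154 low genes of NWAT, 96 (62.3%) were set apart as low in NWAT capillary nuclei and in its nuclei with no endothelial UMI too. The share of all genes set apart in those groups is not given, so this is a count only. Klf2, the transcription factor induced by laminar flow, was at 904 CPM in SWAT, 731 in EWAT, 429 in MWAT and 123 in NWAT venous nuclei, and NWAT was 0.287 of MWAT (0.223 to 0.366). Klf2 was also lowest in NWAT in capillary nuclei, at 65.1 CPM against 413 to 526, and in nuclei with no endothelial UMI, at 14.8 CPM against 47.1 to 83.6. Sox18, a transcription factor of vessel and lymphatic development, was at 158, 173, 139 and 26.8 CPM in venous nuclei and at 30.2 CPM in NWAT capillary nuclei against 221 to 272 elsewhere. Cebpd, an acute phase transcription factor, was at 214, 159.8, 214 and 15.8 CPM, 0.0988 of EWAT (0.0467 to 0.185), with 11.1 CPM in NWAT nuclei with no endothelial UMI against 66.5 to 81.3 elsewhere. Alyref, an mRNA export adaptor, had 3 UMIs in NWAT (0.105 of EWAT, 0.0211 to 0.323), and Lysmd2 had 2 (0.0798 of EWAT, 0.00941 to 0.304). For the genes named here, NWAT was thus low in venous nuclei and in the non-venous nuclei whose values are given.

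**Figure D4:**
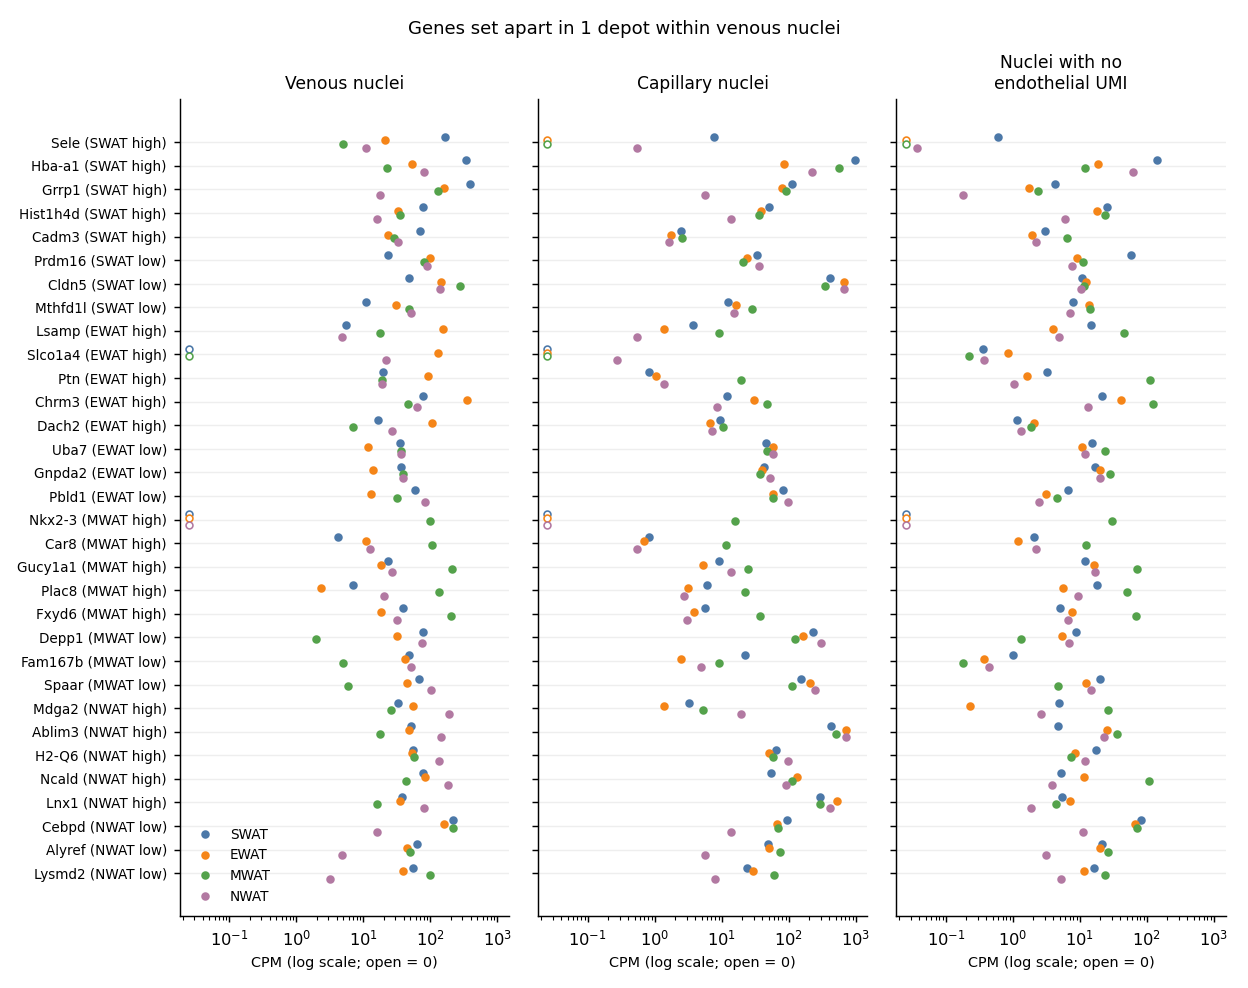
CPM (log axis) of the 32 genes named for standing apart in 1 depot, by depot, in venous nuclei, capillary nuclei and nuclei with no endothelial UMI (open symbols mark a count of 0). Lsamp and Slco1a4 were highest in EWAT venous nuclei, Nkx2-3 had UMIs in MWAT alone, and Cebpd was low in all 3 groups of NWAT.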

How the data were processed

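Nuclei of 4 pooled libraries were analysed from the deposited UMI count matrices. Per the file headers, Cell Ranger 6.0.1 wrote these raw counts per gene and nucleus. The submitters' processing notes also name Seurat and mm10. The annotation release was not given in the sources used here. Each matrix lists 32285 genes and every barcode had at least 500 UMIs, which bounds what a low-depth nucleus can show. The filters removed 26 of 63394 barcodes. The members and gene lists were chosen with earlier results of these data known.

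Counts were summed per class and library. Tests used edgeR 4.0.16 in R 4.3.3 (TMM, filterByExpr, library as a block, since the classes compared come from the same tissue pool). P-values measure only the spread between these 4 libraries. The test was tried on simulated counts with known changes. Shares have exact binomial and CPM exact Poisson 95% intervals, and 3 counts stand for the limit of a count of 0. Ratios between depots were taken on summed CPM. Doublets were not removed beyond the rule. A score from simulated doublets, which would take 281 venous nuclei, was an alternative, as were the UMI thresholds, the list without Vcam1, the rule after thinning, other size factors, no low-count filter and DESeq2 1.42.0. In the thinning alternative, thinned counts chose the nuclei and gene levels were summed from their full counts. Leaving out nuclei with 2 or more adipocyte UMIs was added after the data had been seen. Gene positions come from GENCODE vM21 (GRCm38), matched for 407 of 407 genes.

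The named genes are the 10 highest and 10 lowest log2 differences per class comparison. They had to pass, differ one way in all libraries and reach 20 CPM in the higher class. For each depot they are the 5 highest and 3 lowest ratios. There the higher depot needed 2 times the CPM of its nuclei with no endothelial UMI. Members of the gene lists were named as well. Other computation ran in Python 3.11.15, with scikit-learn 1.9.0, pandas 2.3.3, scipy 1.17.1, matplotlib 3.10.9 and numpy 2.4.6.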

Additional observations from a re-analysis of the deposited data

Results flagged for a closer look

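The peri-heart library (HWAT, pooled from 20 mice) was outside the 4 libraries compared, and 90 of its nuclei met the same venous rule, 19.1% of its 472 blood endothelial nuclei (15.6 to 22.9). In these 90 nuclei Vwf was at 1274 CPM, Selp at 210.2, Ackr1 at 241, Vcam1 at 625, Nr2f2 at 192, Lrg1 at 1564, Il1r1 at 223, Mgp at 3098 and Sele at 55.7 CPM. They were singled out because they are a signal in data that the comparisons did not use.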

How the results depend on the processing

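MWAT had the highest and NWAT the lowest venous share under every alternative run, none of which left out Vwf. In the order SWAT, EWAT, MWAT and NWAT, the shares were 23.3%, 24.6%, 40.2% and 15.7% with 8 endothelial UMIs required. They were 12.1%, 15.8%, 23.0% and 10.6% with 3 class UMIs, and 13.7%, 16.4%, 25.7% and 10.5% without Vcam1. Thinning gave 16.8% in EWAT and 11.4% in NWAT, and leaving out nuclei with adipocyte UMIs gave 14.6% in NWAT. Venous nuclei with Selp or Ackr1 were 239 of 2099 blood endothelial nuclei in SWAT and 174 of 1880 in MWAT. They were 218 of 2728 in EWAT and 154 of 2057 in NWAT, so MWAT was not the highest for them. The labels give no shared replicate numbers. The library was the block, which pairs the classes of 1 tissue pool. With no block, 600 genes were higher and 503 lower than in capillary nuclei, and 197 higher and 244 lower than in arterial nuclei. Of 282 listed or named gene calls, 158 held under every alternative, and 40 of the 124 others were lost only without the block. DESeq2 gave 900 lower genes against capillary nuclei, and 254 higher and 332 lower against arterial nuclei. Choosing the nuclei after thinning gave 856 and 302 lower genes from their full counts. Leaving out nuclei with adipocyte UMIs gave 843 against capillary nuclei. The cause of these lower counts was not tested.

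Leaving out each library in turn gave 883 to 1224 genes higher and 984 to 1423 lower than in capillary nuclei, and 297 to 468 higher and 356 to 545 lower than in arterial nuclei. Genes set apart by depot numbered 72, 51, 163 and 175. With at least 50 UMIs required, more genes entered, and the numbers were 168, 105, 284 and 301 of 9080. Without nuclei with adipocyte UMIs, fewer genes entered (4528), with 31 in EWAT and 97 in MWAT. Of the genes followed, 2 turned direction against capillary nuclei in that alternative: Cd74 (log2 difference 0.23, adjusted p = 0.507) and Steap4 (0.09, adjusted p = 0.916). The small number of arterial nuclei (409) limits their comparison, and a gene below about 100 UMIs was not compared between depots.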
